A study of Arabidopsis thaliana with 16 samples.

Results

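CSLD1 and CSLD3 are paralogs of the cellulose synthase-like D family of Arabidopsis thaliana, and their levels were followed over 8 sample types measured on ATH1 arrays. The members were chosen by name and are 2 of the 22746 probe sets tested, 1 for CSLD1 (AT2G33100) and 1 for CSLD3 (AT3G03050). Both probe sets were given their gene by tables of the study that list transcripts selective for, or enriched in, cell types of these same arrays, so their pattern is not independent evidence for that choice.

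All 16 arrays hold RNA of ecotype Columbia, with no other genotype or treatment, and 2 biological replicates of each sample type. The isolated root hairs came from seedlings of 4 or 5 days that had grown on cellophane, from which the rest of the frozen plant was brushed away, and the pollen was mature grains sorted by flow cytometry. The other types were seedlings of 7 days, open flowers, rosette leaves after bolting, siliques at 2 weeks after bolting, unpollinated pistils, and ovules taken from such pistils. Leaves, pistils, ovules and siliques are called the 4 tissues here because the study takes them as made of cells with diffuse growth, whereas pollen is part of a flower and root hairs are part of a seedling. Root hair RNA was hybridized for the study itself after labelling in 2 cycles, while the other arrays came from earlier work, so for root hairs the sample type and the labelling cannot be told apart.

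Proteins of the CSLD family are membrane glycosyltransferases related to the catalytic subunits of cellulose synthase. They are known for the wall of cells that grow at their tip, where new wall is laid down in a small apical dome, and for the new wall of dividing cells. CSLD3, also known as KOJAK, is required for root hairs to elongate without bursting. CSLD1 is required, together with CSLD4, for the growth of pollen tubes. CSLD2 acts in root hairs beside CSLD3, and CSLD5 acts in the cell plate.

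Median intensity per array was 89.4 to 90.7 in root hairs, 95.3 to 95.9 in pollen and 203 to 252 in the 6 tissues and organs, and the 2 arrays of a type had a Pearson r of log2 values of 0.99 or more across probe sets. Intensities are linear values as deposited, and 216 is taken as the level of detection, which is 3 times the pseudocount of 71.9 added before log2. All 5 measured root hair markers were higher in root hairs than in the 4 tissues, and all 5 measured pollen markers were higher in pollen. Tables of the study, based on these same arrays, named the probe sets of 2 root hair markers and 4 pollen markers. For those genes this is not an independent check of the labels. Among all probe sets, 19.2% were called higher in root hairs and 21.2% higher in pollen. The markers were not exclusive. Of the pollen markers, 4 were also higher in root hairs, where the list summed to 2198 to 2229 against 319 to 405 in seedlings and the 4 tissues, and 4 root hair markers were higher in pollen in the values as deposited. MRH1, a kinase of the root hair list, was at 6060 in pollen and 1952 in root hairs, while the other 4 of that list were below 216 in pollen. The 3 photosynthesis markers summed to at most 192 in root hairs and 224 in pollen, against at least 7997 in each of the other types. The 3 inner root markers summed to 321 to 478 in root hairs and 3774 to 4002 in seedlings. Among them CASP1, of the endodermis, was at 188 and 344 in root hairs, while SUC2 and CO2 lay below 216 there. The part of these other cells in the values of CSLD1 and CSLD3 was not tested. In bulk samples of this kind, fewer cells of a type and less RNA per cell cannot be told apart.

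By intensity, CSLD1 was a transcript of pollen and of the flowers that contain it, and elsewhere it was below the level of detection used here. The study lists CSLD1 among the genes selectively expressed in pollen and root hairs, by detection calls that were not used here. A value below 216 therefore does not show that the transcript is absent. Its intensity was 11075 and 10971 in the 2 pollen arrays (11023 ± 73.5, SD, n = 2) and 1136 and 1115 in the flower arrays (1125 ± 14.8, n = 2). The 12 other arrays lay between 51.8 and 75.6, with a median of 60.6. No array of these 12 reached 216, and none overlapped the pollen or flower arrays. In root hairs CSLD1 was at 52.9 and 56.4, and in seedlings at 51.8 and 55.2. It was at 58.2 and 75.6 in leaves, and at 67.4 and 68.4 in unpollinated pistils. Ovules had 69.1 and 57.6, and siliques had 63.3 and 63.1. The root hair arrays thus lay in the same narrow range as the other 10.

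In the values as deposited, the level in pollen was at least 51.1-fold that of each of the 6 types below detection, with the dimmer side set to 216. For flowers the corresponding bound was at least 5.22-fold. Pollen had 9.80 times the intensity of flowers in these values. Ranked within each array, CSLD1 was at percentile 99.4 of all probe sets on both pollen arrays and at 89.5 and 89.2 in flowers.

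**Figure D1:**
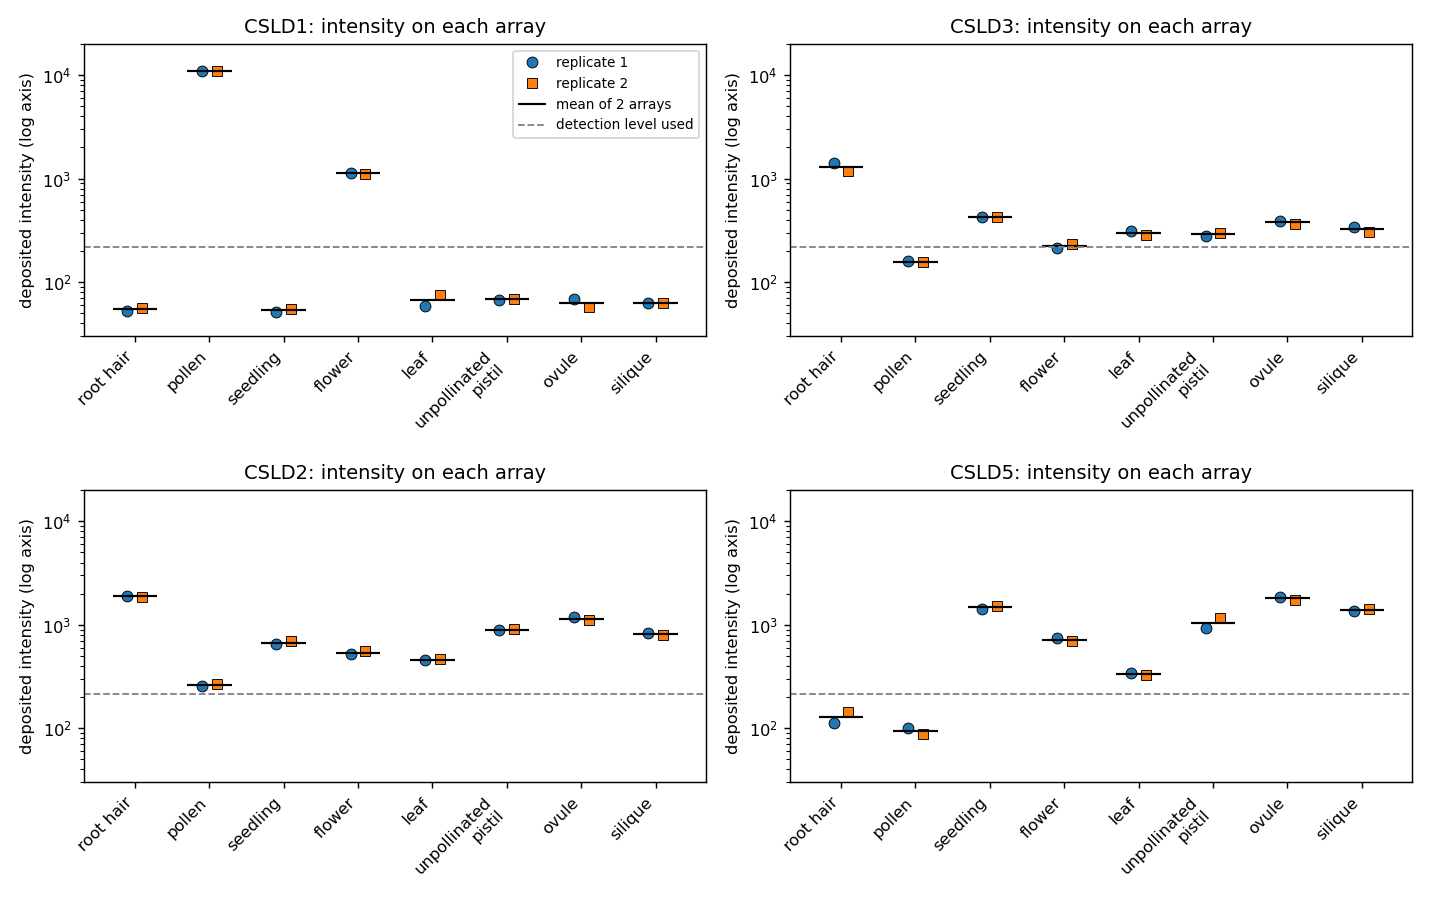
Deposited intensity (log axis) of the 4 measured CSLD genes on each of 16 arrays, by sample type, with circles and squares for replicates 1 and 2, a bar for their mean and a dashed line at the detection level of 216. CSLD1 lies above the line only in pollen and flowers, and CSLD3 is highest in root hairs, where its arrays read 1424 and 1185.

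CSLD3 was measured more broadly, with its highest level in root hairs. It was at 1424 and 1185 on the root hair arrays (1304 ± 169, SD, n = 2). The 14 other arrays lay between 155 and 423 and did not overlap with root hairs. Seedlings followed at 423 and 422, then ovules at 386 and 368. Siliques had 340 and 305, leaves 311 and 283, and unpollinated pistils 277 and 299. The values of siliques, leaves and pistils overlapped. Flowers were at 214 and 233, on either side of the level of detection, and pollen at 159 and 155, below it on both arrays.

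In the values as deposited, root hairs had 3.09 times the intensity of seedlings, the next type, and 4.52 times that of pistils. Against pollen the bound was at least 6.04-fold in those same values, and this difference depends on how arrays are scaled. The spread of the root hair pair was the widest of CSLD3 in any type, and both arrays of the pair were nonetheless higher than every other array.

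In the comparison of each isolated cell type with the mean of the 4 tissues, CSLD1 was higher in pollen by 6.34 on the log2 scale (SE 0.06, adjusted p = 1.6e-19 from limma), and CSLD3 was higher in root hairs by 1.81 (SE 0.07, adjusted p = 1.7e-12 from limma). These log2 differences are of intensity plus the pseudocount, which understates the change of dim transcripts. Among all probe sets, 21.2% were called higher in pollen and 19.2% higher in root hairs, and 64.5% and 69.0% were called lower. Both comparisons use the same 8 tissue arrays. Ranked by log2 difference, CSLD1 in pollen was number 90 of 22746, and CSLD3 in root hairs was number 985.

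The other member in each cell type gave a value that depends on how arrays are scaled. CSLD1 in root hairs differed from the 4 tissues by −0.12 (SE 0.06, adjusted p = 0.084 from limma), with both sides below the level of detection. It became 0.38 once the arrays were quantile normalized and 0.34 once they were scaled to a common 75th percentile, both past the threshold of 0.05. CSLD3 fell in pollen by 0.78 (SE 0.07, adjusted p = 5.1e-08 from limma) in the values as deposited, but was higher by 0.66 after quantile normalization and by 0.68 after scaling to the 75th percentile.

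All probe sets together had a median difference from the 4 tissues of −0.50 (root hairs) and −0.60 (pollen). Measured from that median, CSLD3 lay 2.31 higher in root hairs and −0.18 away in pollen, and CSLD1 lay 6.94 higher in pollen and 0.38 higher in root hairs. Of the probe sets called against the 4 tissues, 21.8% were higher in root hairs and 24.7% in pollen. With quantile normalization these shares were 51.5% and 52.3%, and with the 75th percentile 51.9% and 67.5%. CSLD1 in pollen and CSLD3 in root hairs kept their direction and passed under both scalings, at 5.80 and 8.03 for CSLD1 and at 2.20 and 2.69 for CSLD3.

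Rank within an array needs no scaling between arrays. CSLD3 was at percentiles 93.2 and 91.7 in root hairs. In pollen it was at percentiles 73.8 and 73.0, higher than on any array of the 6 other types, which gave 51.1 to 67.5. These pollen ranks are of a value below the level of detection, on arrays where 18.3% and 18.6% of probe sets exceeded that level, against 48.2% to 54.3% in the 6 other types. CSLD1 stood at percentiles 30.1 and 32.4 in root hairs and at 10.7 to 19.5 on the 10 arrays of seedlings and the 4 tissues, all of them below the level of detection.

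**Figure D2:**
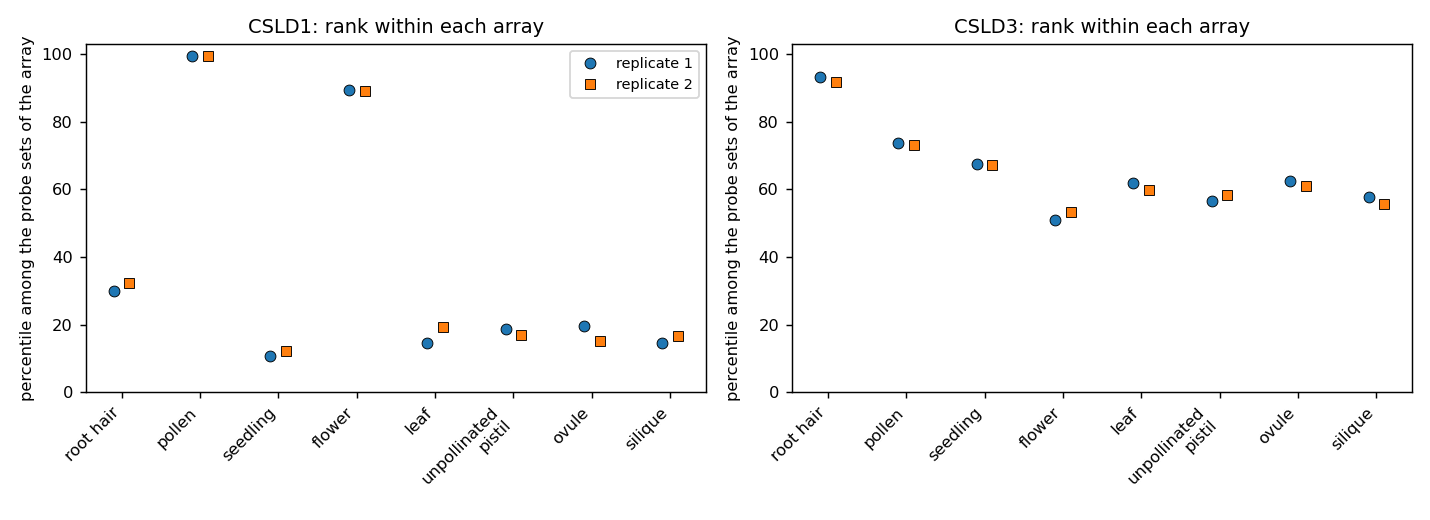
Percentile of CSLD1 (left) and CSLD3 (right) among the 22746 probe sets of each array, by sample type, with circles and squares for replicates 1 and 2. Pollen gives CSLD1 its highest percentile, 99.4, and CSLD3 in pollen, at 73.0 and 73.8 and below the level of detection, lies above the 6 tissues and organs.

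The direct comparison of root hairs with mature pollen grains, which are not growing pollen tubes, gave opposite directions for the paralogs. From pollen to root hairs CSLD1 changed by −6.45 on the log2 scale (SE 0.08, adjusted p = 3e-18 from limma), and CSLD3 by 2.58 (SE 0.09, adjusted p = 6.3e-13 from limma). In this comparison 35.0% of all probe sets were higher in root hairs and 42.6% lower. By this difference CSLD1 was number 105 from the lowest of all probe sets.

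Pollen, flowers, seedlings, leaves and siliques came from 1 earlier study, which allows a comparison within it. CSLD1 was higher in pollen than in leaves by 6.32 and than in siliques by 6.36, and CSLD3 was lower in pollen than in leaves (−0.69) and siliques (−0.78), each past the threshold with limma in the values as deposited. Staying within that study does not remove the dependence on scaling. Its pollen arrays have the lower medians too, and CSLD3 in pollen against flowers was −0.37 as deposited and 0.94 under either scaling. Root hairs have no second type in their own study, and no such value can be given for them.

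The order of the 8 levels of CSLD1 had 2 steps that passed the test, from pollen to flowers (3.21, adjusted p = 9e-15 from limma) and from flowers to pistils (3.10, adjusted p = 6.5e-14 from limma). The order of the remaining types, leaves, ovules, siliques, root hairs and seedlings after pistils, gave no neighbours that passed, with adjusted p of 0.26 to 1. Of all 28 pairs of sample types 13 passed for CSLD1, each of them with pollen or flowers, against 66.7% of the tests when all probe sets and pairs are pooled. None of the 15 pairs without pollen or flowers passed in the values as deposited, the smallest adjusted p being 0.093. Under either scaling 5 of these 15 passed, all with root hairs, which brought the count to 18 of 28. With a smaller pseudocount, or without leaf replicate 1, 2 of the 15 passed.

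For CSLD3 the step from root hairs to seedlings was 1.47 (SE 0.09, adjusted p = 5.5e-10 from limma), and all 7 pairs with root hairs passed, at 1.47 to 2.58. The next neighbours, seedlings, ovules, siliques, leaves and pistils, did not pass one after the other, with adjusted p of 0.095 to 0.76. Pistils were above flowers by 0.29 (adjusted p = 0.018 from limma), and this step no longer passed after quantile normalization, without flower replicate 1 or without pistil replicate 2 (adjusted p = 0.065, 0.14 and 0.11). Flowers were above pollen by 0.37 in the values as deposited (adjusted p = 0.0015 from limma), a direction that turns under either scaling. Of 28 pairs 23 passed for CSLD3, and among the 6 tissues and organs alone 10 of 15 passed. With all probe sets and all 28 pairs pooled, 66.7% of the tests passed, so the count among the 6 is near that share. The count of 23 was 20 after quantile normalization and 22 after scaling to the 75th percentile.

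Each paralog could also be followed from the organ to the cell it contains. CSLD1 had 10.2% of its pollen level in flowers, with 10.1% to 10.4% over the pairs of arrays. As deposited, the 5 pollen markers ranged from 5.44% for ANX1, a receptor kinase of the pollen tube, to 21.4% for PRF5, a profilin. CSLD1 thus lay inside their range. Between pollen and flowers 23.6% of all probe sets were called higher and 55.9% lower, and CSLD1 was number 139 from the top.

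CSLD3 had 32.4% of its root hair level in whole seedlings, with 29.6% to 35.7% over the pairs of arrays. The 5 root hair markers ranged from 1.32% for EXPA18, an expansin that loosens the hair wall, to 10.5% for MRH1, which root hairs need to form properly, but all 5 were below detection in seedlings, so these shares are open to background. With seedlings set to 216 the upper bounds were 2.08% for EXPA18, 3.26% for EXPA7, 7.75% for XTH26, 11.1% for MRH1 and 40.4% for LRX1, an extensin-like wall protein. As deposited, the share of CSLD3 was above the bounds of 4 of these markers and below that of LRX1. In root hairs against seedlings 18.5% of probe sets were called higher and 64.4% lower, and CSLD1 did not pass there (0.01, adjusted p = 0.87 from limma) in the values as deposited, both types being below detection. With either scaling that CSLD1 value passed as higher, at 0.53 and 0.45.

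The share of the summed intensity of the 8 types that fell in the highest one was 88.1% for CSLD1 in pollen and 38.4% for CSLD3 in root hairs. By this share CSLD1 was number 135 of all probe sets and CSLD3 number 3279. CSLD2 had 28.2% in root hairs, and CSLD5 had 25.8% in ovules.

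The gap between the paralogs on each array, log2 of CSLD1 minus log2 of CSLD3 with the pseudocount added to both, followed their separate profiles. A gap sets no level of one probe set against the other, and only its change between types is read. It was 5.59 and 5.61 in pollen and 2.08 and 1.96 in flowers. In root hairs it was −3.58 and −3.29. The 10 arrays of the other types lay at −1.27 or lower, with the lowest mean, −1.98, in seedlings, overlapping neither pollen and flowers nor root hairs.

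Pollen differed from the 14 other arrays by 6.95 and root hairs by −3.38. In the exact two-sided permutation test over arrays, 1 test for each cell type, both gave p = 0.0167. This is also the adjusted value over the 2 tests and the smallest that the 120 arrangements allow. The test treats the 16 arrays as exchangeable, although they are 2 replicates of each of 8 types. Any type with the most extreme gap on both its arrays would give this same p, so no conclusion is drawn from it. Across the 8 type means the levels of CSLD1 and CSLD3 had a Pearson r of −0.60 and a Spearman rho of −0.95, a description of 8 points that share their arrays, and among them 6 of CSLD1 are below detection.

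**Figure D3:**
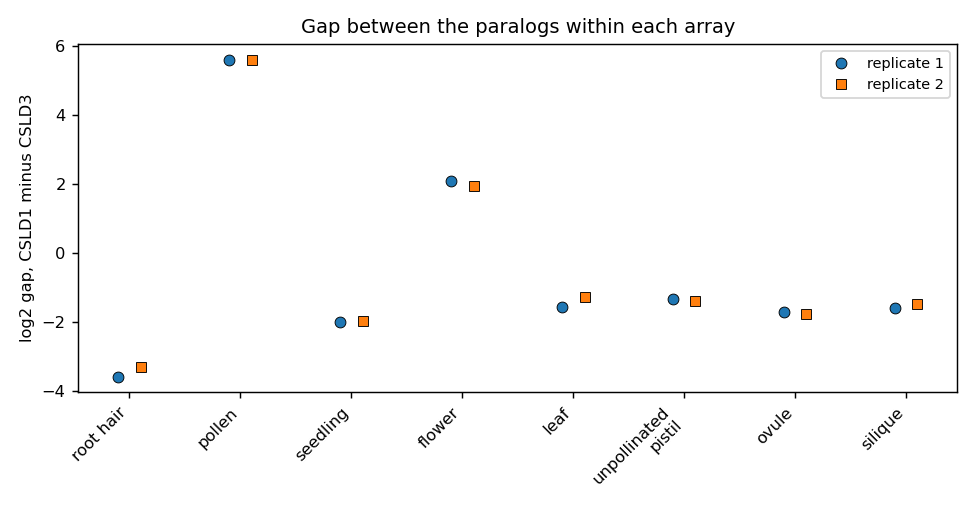
Log2 gap between CSLD1 and CSLD3 within each array (vertical axis), by sample type, with circles and squares for replicates 1 and 2. Relative to the other types, pollen is highest at 5.59 and 5.61 and root hairs are lowest at −3.58 and −3.29.

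Of the 6 genes listed for the CSLD family, 4 have a named probe set here. CSLD2 had the nearest profile to CSLD3 within the family, with a Pearson r of 0.86 over the 8 type means. It was at 1906 and 1859 in root hairs, 1150 in ovules and 898 in pistils as means of 2 arrays, and 263 in pollen. It was higher in root hairs than in the 4 tissues by 1.18 (adjusted p = 2.2e-11 from limma). In pollen its difference was −1.36 in the values as deposited and 0.24 under either scaling. CSLD5 went another way. Its means were 1806 in ovules, 1473 in seedlings and 1386 in siliques, while root hairs (128) and pollen (93.8) were both below detection. The log2 difference of CSLD5 was −2.40 for root hairs and −2.67 for pollen, and both passed under every scaling tried.

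The CESA genes encode the catalytic subunits of cellulose synthase, and CESA1, CESA3 and CESA6 are best known for the primary wall. Of 10 listed, 5 have a named probe set, all named from the tables of the study. All 5 were lower in pollen, as were 64.5% of all probe sets, with a median log2 difference of −3.25 against −0.60 over the array. In root hairs the test called 1 higher and 3 lower and left 1 uncalled, with a median of −0.19 against −0.50. Over all probe sets 19.2% were called higher and 69.0% lower there, so the count of lower CESA genes in root hairs is near that share.

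CESA3 was at 159 in pollen, below detection, and at 4037 in root hairs. Its log2 difference was −4.11 in pollen and 0.03 in root hairs, where it did not pass. CESA1 fell by 3.30 in pollen and was higher in root hairs by 0.27 (adjusted p = 0.011 from limma), a call lost without root hair replicate 1. CESA6 fell by 3.25 in pollen. In root hairs CESA5 fell by 1.87, and CESA2 was also lower. None of the 5 measured CESA genes shared the direction of CSLD1 in pollen.

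Of 24 other cellulose synthase-like genes 8 have a named probe set. In root hairs 3 were higher and 5 lower than in the 4 tissues, where 19.2% and 69.0% of all probe sets were called. In pollen the test called 2 higher and 5 lower and left 1 uncalled, beside 21.2% and 64.5% of all probe sets. These counts of lower genes are near the shares over the array. The medians were −1.20 and −0.78, against −0.50 and −0.60 for all probe sets. Genes of the CSLA group make mannans and those of the CSLC group the backbone of xyloglucan. CSLC12 was at 5374 and 5155 in pollen and 723 in flowers, and its log2 difference in pollen was 4.39 (adjusted p = 1e-16 from limma). Its profile had a Pearson r of 0.95 with CSLD1. Unlike CSLD1, CSLC12 was also detected in root hairs, at 464. CSLC4 fell by 2.10 in pollen, and CSLC5 fell by 1.92. In root hairs CSLA3 was higher by 2.32, with a mean of 735, whereas CSLA2 fell by 2.87 and CSLA1 fell by 2.28.

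**Figure D4:**
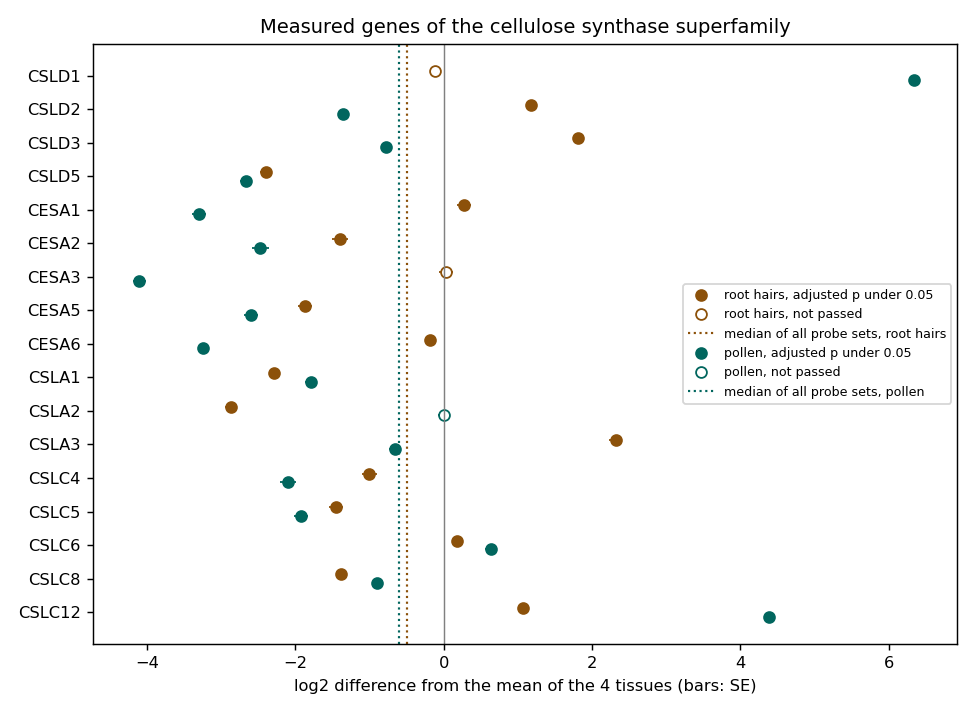
Log2 difference from the mean of the 4 tissues (horizontal axis, bars for SE) of the 17 measured CSLD, CESA and other CSL genes, in root hairs (brown) and pollen (green), with open circles for adjusted p of 0.05 or more and dotted lines at the median of all probe sets. CSLD1 is farthest to the right in pollen at 6.34, CSLA3 and CSLD3 are so in root hairs at 2.32 and 1.81, and all 5 CESA genes lie left of 0 in pollen.

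Proteins that act beside cellulose synthase were measured for 3 of 10 listed genes. COBL9, a COBRA-like protein anchored to the outside of the plasma membrane and required for root hair growth, was at 3571 and 4175 in root hairs. Its log2 difference there was 4.26, and its profile had a Pearson r of 0.93 with CSLD3. In pollen COBL9 had 0.00 and did not pass, and with the scalings it was 1.19 and 1.37, below detection at 134 in the values as deposited. COB, its relative of elongating cells, had 0.44 in root hairs and −2.89 in pollen. CTL1, a chitinase-like protein of cellulose assembly, had 0.36 and −4.58, and its call in root hairs was lost without root hair replicate 2. Of these 3 genes, all were higher in root hairs, against 19.2% of all probe sets, and 2 were lower in pollen, which is near the 64.5% of all probe sets. COBL9 and CTL1 count as measured only through tables of the study, so these counts are not independent of that choice and no conclusion is drawn.

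Callose, another glucan of plant cell walls, was represented by 2 of 6 listed synthases. CALS1 was higher in root hairs (0.93) and lower in pollen (−2.66). PMR4 was lower in root hairs (−1.10). In pollen PMR4 had −0.40 in the values as deposited, and 1.11 and 1.30 under the scalings.

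The 5 genes most like CSLD1 over the 8 type means had a Pearson r of 0.9994 to 0.9996. They were AT3G62180, AT5G20390, AT1G17540, ANX2 and GH9A4. ANX2 is a receptor kinase that keeps the pollen tube from bursting, and GH9A4 belongs to the glycosyl hydrolases that include endoglucanases. ANX2 had a mean of 10004 in pollen and 973 in flowers, and GH9A4 14356 and 1364. In flowers the 5 genes had 9.44% to 12.1% of their pollen level in the values as deposited, with CSLD1 at 10.2%. Over the whole array 149 probe sets had an r above 0.99 with CSLD1, and 664 had one above 0.9.

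The 5 genes nearest to CSLD3 were AT1G01440, AT3G01720, AT4G23470, TOE2 and AT2G30740, with a Pearson r of 0.996 for the first and 0.983 to 0.985 for the others. AT1G01440 was at 389 in root hairs, 144 in seedlings, 134 in ovules and 62.0 in pollen. TOE2, a transcription factor of the AP2 family, was at 733 in root hairs and 300.5 in seedlings. A single probe set had an r above 0.99 with CSLD3, and 435 had one above 0.9. These correlations describe 8 points from 1 set of arrays and were not tested.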

How the data were processed

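The intensity values deposited by the authors were used for 16 ATH1 arrays. By the study's methods they are model-based expression values from dChip, normalized over arrays. Detection calls from GCOS 1.4 and MAS5, tools listed in the submitters' processing notes, were not used here. A genome build is not given in the sources used here, and neither coordinates nor sequences are printed.

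Of 22810 probe sets 64 controls were left out. R 4.3.3 and limma 3.58.1 were run on log2(intensity + 71.9), with a pseudocount taken from the 20th percentiles of the arrays (their median). Each sample type had its own mean, leaving 8 residual degrees of freedom, with a mean-variance trend and Benjamini-Hochberg adjustment over the 22746 probe sets of each comparison at a threshold of 0.05. It was tested on simulated data. Two-sided exact permutation tests of the gap used scipy 1.17.1. Python 3.11.15 with pandas 2.3.3, numpy 2.4.6 and matplotlib 3.10.9 made the tables and figures. The limma p-values rest on the spread between replicate arrays, pooled over the 8 types and moderated across probe sets by empirical Bayes. All pairs of types thus share the same SE for a gene, whatever the spread of the types compared. With 2 arrays per type the precision is limited.

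The platform annotation named 13437 probe sets, a symbol match 72 more and tables of the study 2062, leaving 503 with several genes and 6672 with none. Of 2689 named by both sources 58 differed. Only genes with a probe set so named are called measured, which for the family lists partly follows the study's tables. Probe sets can bind transcripts of related genes. The members and lists were chosen with earlier results of these data known. Genes named are all measured CSLD genes, at most 3 of each other family list for either cell type, by size of the log2 difference, and the 5 named genes with the highest Pearson r to each member. Alternatives were 2 scalings, smaller and larger pseudocounts, a filter on dim probe sets, no trend, a fit on the compared arrays, a replicate block, and leaving out each array. Equal replicate numbers showed no common pairing of the samples.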

Additional observations from a re-analysis of the deposited data

How the results depend on the processing

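Over 58 results, 1333 of 1366 alternative values kept their side of the threshold with no called value turning, or stayed within 1.5 times for counts. Of these, 19 turned in sign without passing in either setting. Up to 16 settings per result left out 1 array, and a difference cannot change when that array is outside its comparison. The total therefore overstates how far the results were tried. Scaling changed most of the values that did not stay the same, and the cause was not tested. With quantile normalization and then the 75th percentile, CSLD3 in pollen against the 4 tissues was 0.66 and 0.68, CSLD1 in root hairs 0.38 and 0.34, CSLD3 in pollen against flowers 0.94 under each, CSLD1 in siliques against root hairs −0.41 and −0.43, CSLD2 in pollen 0.24 under each, COBL9 in pollen 1.19 and 1.37, and PMR4 in pollen 1.11 and 1.30. With the 75th percentile, 3 CESA genes were higher in root hairs, and of the other CSL genes 4 were higher and 3 lower in pollen. CSLD1 in root hairs against the 4 tissues was called with a smaller pseudocount (−0.19, adjusted p = 0.04 from limma) and without leaf replicate 1 (adjusted p = 0.033), and lay between −0.14 and −0.093 when each array was left out in turn.

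CSLD3 in seedlings passed against ovules under both scalings (adjusted p = 0.019 and 0.024 from limma), and ovules passed against siliques under the 75th percentile (adjusted p = 0.035). The gap of pollen against the other arrays was 6.78 to 7.21 and that of root hairs −3.53 to −2.94 when each array was left out. Without 1 of the 2 arrays of the cell type the exact p was 0.13, since 1 array against 14 cannot pass. The replicate block changed no call. With the replicate block CSLD3 in root hairs stayed at 1.81 and CSLD1 in root hairs at −0.12 (adjusted p = 0.1 from limma). Deviations of replicate 1 from its type mean, correlated across probe sets, gave −0.37 to 0.19 over 28 pairs of types, 2 of them above 0.1. Equal replicate numbers thus showed no common pairing. With 2 replicates, a negative value is what sharing under swapped numbers would give. The lowest values were −0.37 for pistils and ovules, −0.26 for flowers and siliques, and −0.23 for leaves and siliques. Whether any arrays shared a batch was not tested.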
